A study of Mus musculus with 30 samples.

Results

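Cxcl1, Cxcl2, Cxcl3, Ptgs2, Tnf, Il1b, Il1a and Il1rn are 8 genes whose products start or limit acute inflammation. They were taken by symbol from the table of counts over all libraries, in which they are 8 of 54146 annotated genes. They were chosen by name on the observation that Cxcl2 was lower after interferon gamma (IFNG), and less so in the knockout clones, with the levels of the 8 genes in each clone and treatment in view and no threshold on them. The IFNG response of the 8 genes and its difference between genotypes are therefore given as values with no test. The p-values given for other contrasts are not independent of the selection, since the levels in each clone were known when the genes were chosen.

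RNA-seq was done in J774A.1, a mouse macrophage-like line of tumour origin. Each of 5 clones was left untreated or kept for 4 h with IFNG at 100 ng/mL, with 3 libraries for each clone and treatment, 30 in all. WT1, WT2 and WT3 are wild-type (WT) clones grown from single cells. KO1 and KO2 are homozygous for a CRISPR/Cas9 deletion of B2_Mm2.Dicer1, a B2 SINE repeat in the first intron of Dicer1, and the knockout (KO) genotype is thus represented by 2 clones. The KO clones also went through electroporation with Cas9 and guides, and the WT clones did not, so that genotype, electroporation and clone cannot be told apart in a comparison of KO with WT. Untreated groups held 9 WT and 6 KO libraries, as did the IFNG groups. Nothing in the labels says that the 3 libraries of a group came from separate cultures, and p-values measure the spread between these libraries, which may be technical.

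IFNG is a T cell and NK cell cytokine that signals through JAK kinases to arm macrophages. Cxcl1, Cxcl2 and Cxcl3 are CXC chemokines that draw neutrophils through the receptor Cxcr2. Ptgs2 is the inducible cyclooxygenase of prostaglandin synthesis, Tnf is the cytokine that signals through Tnfrsf1a and Tnfrsf1b, Il1a and Il1b are the agonists of the receptor Il1r1, and Il1rn encodes the antagonist that occupies this receptor without signalling. Transcription of most of these genes is known to be driven by NF-κB, and many of their mRNAs carry AU-rich elements in the 3′ UTR, to which Zfp36 (tristetraprolin) binds and so shortens the life of the mRNA.

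AU-rich pentamers were counted in the annotated 3′ UTR of each gene, since mRNA stability is a known level of control of this group and the selection did not use sequence. The stretch of 30 bases with most copies of ATTTA is shown 5′ to 3′ on the strand of the mRNA, from the mm10 genome, with each ATTTA in capitals.
Cxcl2, chr5:90905328-90905357, plus strand: ATTTATTTAtctatgtATTTATTTATTTAt
Tnf, chr17:35199677-35199706, minus strand: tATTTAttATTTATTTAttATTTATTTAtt
Ptgs2, chr1:150105798-150105827, plus strand: ATTTATTTATTTAtgtgaagaATTTAattt
Il1b, chr2:129364801-129364830, minus strand: ttacctATTTATTTAtgtATTTAttgattg
Cxcl1, chr5:90892607-90892636, plus strand: tcctATTTATTTAtgtATTTATTTAttcca
These 5 genes held overlapping runs of the pentamer. The longer motif TTATTTATT, close to the preferred binding site of Zfp36, was present in 8.13% of 21021 protein-coding genes with a 3′ UTR and in 5 of the 8 genes. It occurred 5 times in Tnf, 4 times in Cxcl2, 2 times in Cxcl1 and 1 time each in Cxcl3 and Ptgs2, and it was not in the 3′ UTR of Il1b, Il1a or Il1rn. The 3′ UTR of the antagonist Il1rn, of 1899 bases, held no ATTTA at all, whereas 66.1% of genes held at least 1. A match describes the letters and is no evidence of binding.

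**Figure D1:**
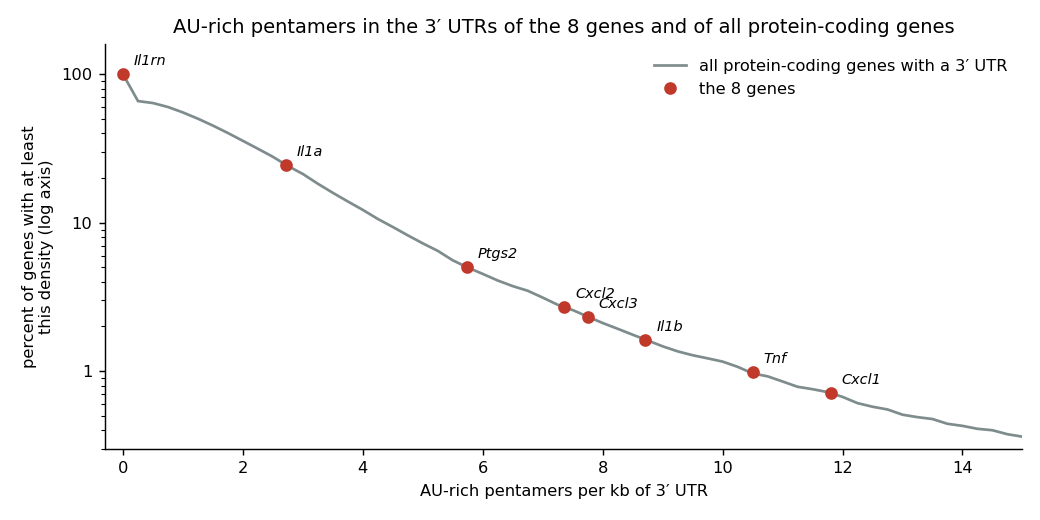
The horizontal axis gives copies of the AU-rich pentamer per kb of 3′ UTR and the vertical axis (log scale) the percentage of protein-coding genes with at least that density, with the 8 genes as points on the curve of all genes. Tnf (10.5 per kb) is reached by 0.994% of genes and Cxcl2 (7.36 per kb) by 2.7%, while Il1rn lies at 0 and the median gene at 1.26 per kb.

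Promoters were read from RefSeq windows of 300 bases (GRCm38), 250 before and 50 after each start, which hold all 8 genes. A loose form of the NF-κB site, GGG, any 4 bases and TCC, searched on both strands, was found in 19.2% of 32851 promoters and in 4 of the 8 genes, namely Cxcl1, Cxcl2, Cxcl3 and Il1rn. The share counts promoters and not genes, and Il1rn had several promoter windows, in part overlapping. The 3 neighbouring chemokine genes on chromosome 5 held an identical match, GGGAATTTCC, in capitals in the 60 bases shown, all on the plus strand.
Cxcl1, chr5:90891149-90891208: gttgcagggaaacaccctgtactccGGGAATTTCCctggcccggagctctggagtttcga
Cxcl2, chr5:90903777-90903836: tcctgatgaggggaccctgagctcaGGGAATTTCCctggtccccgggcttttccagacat
Cxcl3, chr5:90786003-90786062: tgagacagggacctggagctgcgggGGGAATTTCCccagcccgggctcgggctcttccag
The match began 71 bases before the RefSeq start in Cxcl1, 97 in Cxcl2 and 73 in Cxcl3. A gene without a match lacks only these letters in this window.

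Levels are given as CPM, the counts of a gene relative to the TMM-scaled total of the library. Libraries held between 15566122 and 37992642 counted fragments. Irf1 and Gbp2, direct IFNG targets, rose in both genotypes (log2FC of Irf1 5.10 in WT and 5.13 in KO, edgeR adjusted p-value = 3.07e-21 and 6.04e-14), and Dicer1 was lower in KO than in WT by 0.43 untreated and by 0.80 after IFNG on the log2 scale. Untreated, the mean of Dicer1 was 71.5 CPM in KO1, while KO2 and WT1 were both at 105 CPM. The means of the macrophage markers Csf1r and Cd68 lay between 516 and 1420 CPM in every clone and treatment. Of 5 markers of other cell types, 4 had means at or below 0.112 CPM in every clone and treatment, with the NK cell marker Ncr1 at 0, and the endothelial marker Pecam1 ran from 0.265 to 1.42 CPM. WT1 stood apart from the other clones in the macrophage markers Adgre1 and Lyz2. Its mean of Adgre1 (F4/80) was 10.2 CPM untreated and 9.88 CPM after IFNG against 42.3 to 101 CPM in WT2 and WT3 and 247 to 283 CPM in KO, and Lyz2 was at 868 and 833 CPM against 1620 to 2560 CPM. In Fcgr1 and Itgam it did not, with untreated means of 45.3 and 840 CPM in WT1 beside 43.1 and 828 CPM in KO1. Results that rest on WT1 are given with and without it.

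Cxcl2 (ENSMUSG00000058427.10, chr5:90903871-90905938, mm10, plus strand) was the chemokine of the group that these cells made in quantity, with 75143 counts over the 30 libraries. In untreated WT1 the 3 libraries held 348, 265 and 207 CPM, in WT2 86.3, 67.5 and 57 CPM, and in WT3 132, 117 and 77.7 CPM. Untreated KO1 held 169, 137 and 121 CPM and KO2 247, 219 and 166 CPM. WT1 and KO2 were thus high and WT2 low, and KO and WT libraries overlapped.

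After IFNG, Cxcl2 was at 37.4, 26.4 and 30.9 CPM in WT1, at 12.5, 7.93 and 7.66 CPM in WT2 and at 14.1, 11.7 and 11.5 CPM in WT3. KO1 held 37.1, 37.6 and 40.9 CPM and KO2 59.6, 47.5 and 76.2 CPM. Every treated library lay below every untreated library of its clone in all 5 clones, a pattern shared by 9.24% of the 12993 genes whose mean reached 1 CPM in any clone and treatment. The mean after IFNG was 11.5% of the untreated mean in WT1, 13.3% in WT2 and 11.4% in WT3, but 27.1% in KO1 and 29.1% in KO2. Expressed as log2FC the response was -3.13 (standard error 0.164) in WT1, -2.89 (0.147) in WT2 and -3.12 (0.155) in WT3, against -1.85 (0.0969) in KO1 and -1.80 (0.145) in KO2. These values are those by which the gene was chosen. The fitted difference of KO from WT response was 1.23 on the log2 scale (standard error 0.183).

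Within the KO genotype the Cxcl2 response of KO1 differed from that of KO2 by -0.06 on the log2 scale (interval of 2 standard errors from -0.49 to 0.37), a value given with no test. The starting levels lay further apart. Untreated WT2 was lower than WT1 by a log2FC of -1.97 and WT3 by -1.32 (edgeR adjusted p-value = 9.78e-08, any difference among WT clones), and KO1 was lower than KO2 by -0.57 (standard error 0.118, adjusted p-value = 0.00236). WT1, with the highest untreated level, and WT2, with the lowest, thus had untreated means 3.9-fold apart and percentages left after IFNG of 11.5 and 13.3.

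**Figure D2:**
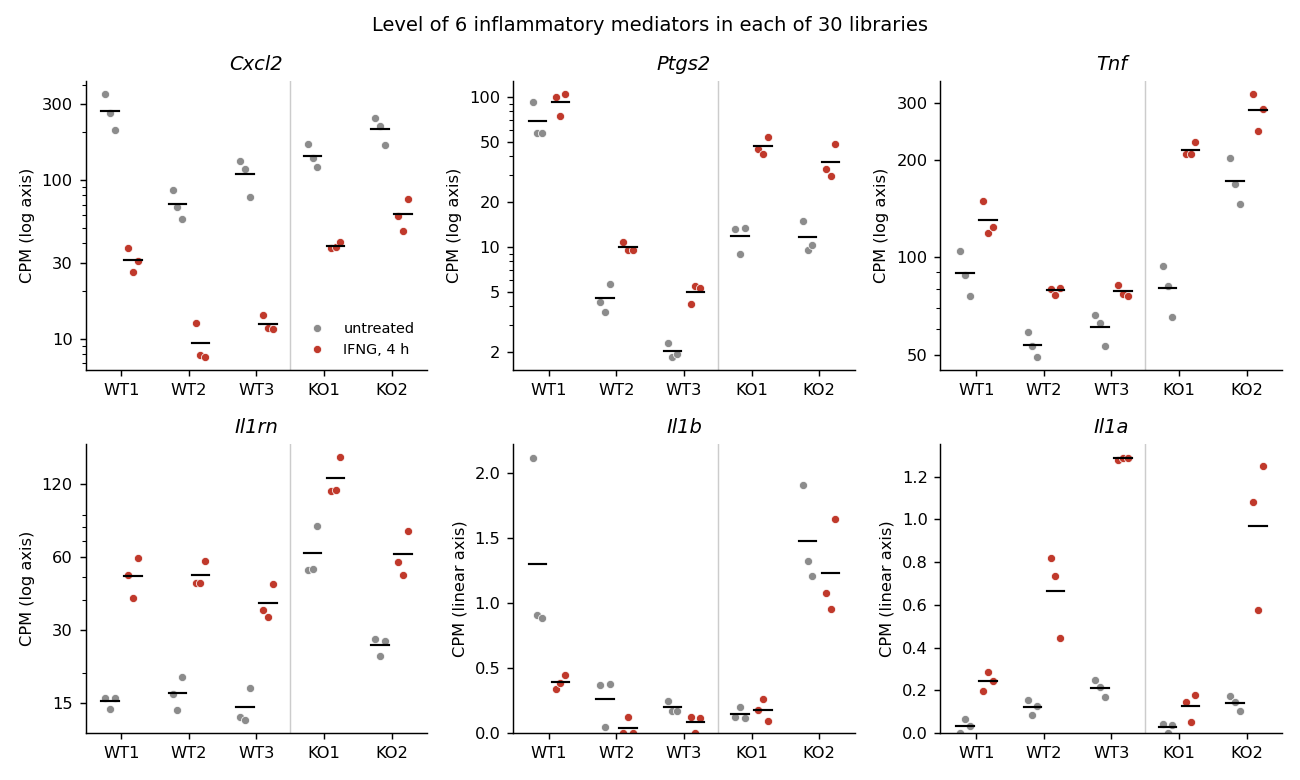
Each panel plots CPM (vertical axis, log or linear as labelled) of a gene in the 3 libraries of each clone, grey for untreated and red for IFNG, with a bar at the group mean. Cxcl2 is lower after IFNG in every clone, and Tnf and Il1rn are higher in every clone. Il1a is higher too, in KO1 on only 2 counts untreated and 9 after IFNG. Ptgs2 of WT1 stands far above that of the other clones in untreated cells (57.6 to 91.9 CPM against at most 14.9 CPM).

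Cxcl1 (ENSMUSG00000029380.11, chr5:90891241-90893115) and Cxcl3 (ENSMUSG00000029379.10, chr5:90786103-90789600), which lie on the same stretch of chromosome 5 and encode chemokines for the same receptor, were close to absent. Cxcl1 had 2 counts in all, in 2 libraries, and Cxcl3 had 32 counts in 16 libraries, with a highest level of 0.227 CPM. A count of 0 allows up to 0.193 CPM in the shallowest library and 0.079 CPM in the deepest, counting error only. Cxcl1 and Cxcl3 passed the filter on low counts in no comparison, and no difference was detectable at this depth. Their receptors were near the same floor, with means of at most 0.0717 CPM for Cxcr1 and 0.0819 CPM for Cxcr2.

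Ptgs2 (ENSMUSG00000032487.8, chr1:150100031-150108227, plus strand) varied more between untreated WT clones than Cxcl2, Tnf, Il1b or Il1rn. Untreated WT1 held 91.9, 57.7 and 57.6 CPM, WT2 4.27, 3.67 and 5.66 CPM, and WT3 2.27, 1.84 and 1.94 CPM. Untreated KO1 held 13.1, 9 and 13.4 CPM and KO2 14.9, 9.51 and 10.2 CPM. WT1 was 34.2-fold above WT3 in the mean, and both KO clones lay between WT1 and the remaining WT clones.

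After IFNG the Ptgs2 libraries were at 99.7, 74.2 and 104 CPM in WT1, 10.8, 9.52 and 9.5 CPM in WT2 and 4.18, 5.48 and 5.35 CPM in WT3. KO1 reached 45, 41.4 and 53.7 CPM and KO2 33, 29.4 and 48.3 CPM. All treated libraries lay above the untreated ones in 4 clones and overlapped with them in WT1. The ratio of the means, IFNG over untreated, was 1.34 in WT1, 2.2 in WT2, 2.48 in WT3, 3.96 in KO1 and 3.2 in KO2. As log2FC per clone these were 0.41 (standard error 0.159), 1.18 (0.134), 1.29 (0.165), 2.02 (0.128) and 1.66 (0.173). The ratio was lowest in the clone with the highest untreated level. The difference of KO from WT response was 1.12 (standard error 0.208) and 0.62 when WT1 was left out.

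Among WT clones the Ptgs2 responses did not pass the test of a difference (0.78 for WT2 and 0.87 for WT3 relative to WT1, edgeR unadjusted p-value = 0.00575, adjusted p-value = 0.15). They passed (0.77 for WT2, adjusted p-value = 0.00929) once the place of a library in the order of the numbers in the column names was added as a term, an alternative chosen after seeing the data. The untreated levels did, with log2FC of -3.97 for WT2 and -5.08 for WT3 relative to WT1 (adjusted p-value = 6.25e-13). KO1 and KO2 were close in untreated cells, with a difference of 0.02 on the log2 scale (interval from -0.29 to 0.34, adjusted p-value = 0.932).

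Tnf (ENSMUSG00000024401.14, chr17:35199381-35202007, minus strand) had the most counts of the group, 93242. Untreated libraries held 105, 88.3 and 76.3 CPM in WT1, 59.1, 53.2 and 49.3 CPM in WT2 and 66.5, 63 and 53.3 CPM in WT3. KO1 held 93.9, 81.8 and 65.3 CPM and KO2 203, 168 and 146 CPM. KO2 lay above every other clone, and KO1 overlapped with WT1 and WT3.

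With IFNG, Tnf was at 149, 119 and 124 CPM in WT1, 80.2, 76.6 and 80.6 CPM in WT2, and 82.4, 77 and 76.3 CPM in WT3. KO1 held 208, 208 and 227 CPM and KO2 319, 246 and 288 CPM. Every treated library lay above the untreated libraries of its clone in all 5 clones, as in 10.8% of the 12993 genes. The ratio of means was 1.45, 1.47 and 1.29 in WT1, WT2 and WT3, 2.67 in KO1 and 1.65 in KO2. Tnf and Cxcl2 thus took opposite directions under IFNG in each clone. The response difference of KO from WT, 0.57 (standard error 0.134), was 0.23 without KO1 and 0.93 without KO2. KO1 responded more than KO2 by 0.72 on the log2 scale (standard error 0.167, edgeR unadjusted p-value = 0.000448), which did not pass over all genes (adjusted p-value = 0.159) but passed with the order of the library numbers as a term (0.73, adjusted p-value = 0.00367).

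Il1rn (ENSMUSG00000026981.15, chr2:24336853-24351494, plus strand) was even across untreated WT clones, with 15.8, 14.2 and 15.7 CPM in WT1, 16.4, 14 and 19.2 CPM in WT2, and 13.1, 12.8 and 17.3 CPM in WT3. KO1 held 53.4, 53.9 and 80.9 CPM and KO2 27.6, 23.4 and 27 CPM. Each of the 6 KO libraries lay above each of the 9 WT libraries. After IFNG the levels were 50.5, 40.9 and 59.7 CPM in WT1, 47.2, 46.8 and 58.1 CPM in WT2 and 36.2, 34.1 and 46.5 CPM in WT3. KO1 reached 113, 114 and 156 CPM and KO2 57.6, 50.8 and 76.9 CPM, the latter within reach of the WT libraries. The ratio of means was 3.31, 3.06 and 2.71 in the WT clones, 2.03 in KO1 and 2.38 in KO2. Of the 4 abundant genes it was the only one with a negative fitted difference of KO from WT response, -0.49 on the log2 scale (standard error 0.152).

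The agonists of the same receptor were scarce. Il1b (ENSMUSG00000027398.13, chr2:129364570-129371139, minus strand) had 423 counts in the 30 libraries and Il1a (ENSMUSG00000027399.1, chr2:129299610-129309972, minus strand) 256. Untreated Il1b was at 2.12, 0.904 and 0.882 CPM in WT1 and at 1.91, 1.32 and 1.21 CPM in KO2, and it reached at most 0.377 CPM in the other 3 clones. It was thus highest in the clones that also had most Cxcl2. After IFNG all Il1b libraries lay below the untreated ones in WT1 and WT3, and the treatments overlapped in WT2, KO1 and KO2. In WT3 the highest treated library (0.124 CPM) and the lowest untreated one (0.167 CPM) each held 3 counts. Il1a was at most 0.249 CPM in untreated libraries of any clone. With IFNG it was at 1.28, 1.29 and 1.29 CPM in WT3, at 1.08, 0.574 and 1.25 CPM in KO2 and at 0.82, 0.737 and 0.443 CPM in WT2, and it stayed at or below 0.286 CPM in WT1 and KO1. Il1a lay above the untreated libraries in all 5 clones, as in 10.8% of the 12993 genes, and Il1b in 0. In KO1 the highest untreated library of Il1a (0.0414 CPM) and the lowest treated one (0.0528 CPM) each held 1 count. That separation does not go beyond counting error. The receptor Il1r1 had means of at most 0.171 CPM.

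Per kb of exon, the scale on which genes can be compared, Cxcl2 had the highest level of the 8 genes in untreated WT1, WT2, WT3 and KO1, followed by Tnf, and Tnf came before Cxcl2 in KO2. After IFNG, Tnf was highest in all 5 clones.

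**Figure D3:**
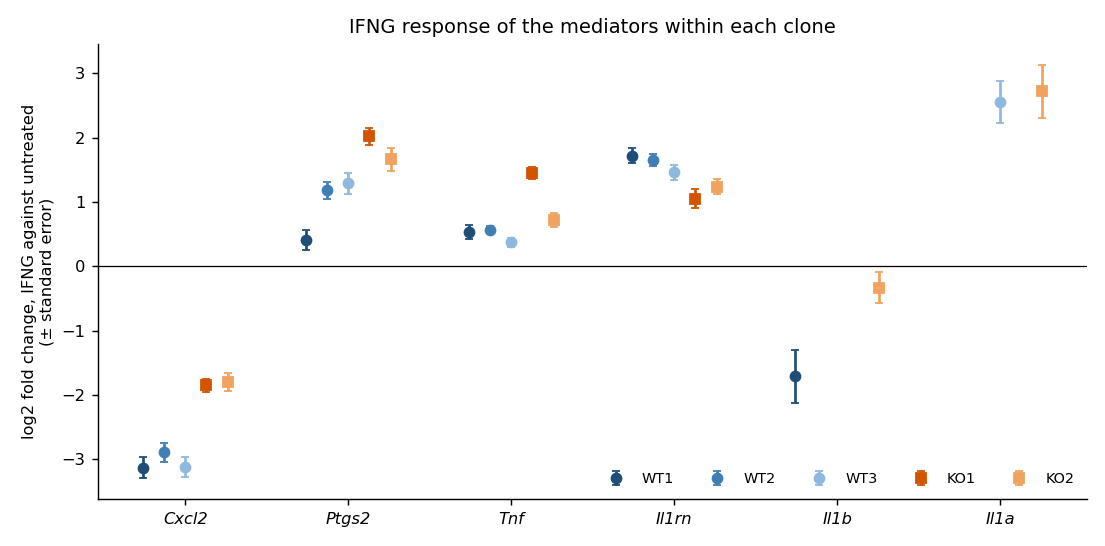
Points give the log2FC of IFNG against untreated (vertical axis) with its standard error within each clone for 6 genes, circles for WT and squares for KO clones. Cxcl2 sits near -3 in the 3 WT clones (-3.13 to -2.89) and at -1.85 and -1.80 in the KO clones, while the KO points of Ptgs2 and Tnf lie above the WT points and those of Il1rn below.

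KO was compared with WT in untreated cells. In this comparison 26.6% of 13886 genes passed the test (12.2% higher in KO). Of the 8 genes, 5 passed the filter on low counts and 2 of these, Il1rn and Tnf, passed the test over libraries, both higher in KO. The levels compared were known when the genes were chosen. On counts summed per clone neither passed (edgeR adjusted p-value = 0.26 for Il1rn and 0.439 for Tnf). Il1rn was higher by a log2FC of 1.52 (standard error 0.224, edgeR adjusted p-value = 0.000122), and the separation of all its KO from all its WT libraries was shared by 4.38% of genes. It was higher in either clone alone, by 2.02 in KO1 (adjusted p-value = 6.7e-07) and by 0.76 in KO2 (adjusted p-value = 0.000615). Tnf was higher by 0.89 (standard error 0.233, adjusted p-value = 0.0102). This rested on KO2, with a log2FC of 1.34 alone (adjusted p-value = 0.000747) against 0.22 for KO1 (adjusted p-value = 0.474), and the call was lost without WT2 (0.74, adjusted p-value = 0.0622) and without WT3 (0.81, adjusted p-value = 0.0572).

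Untreated Cxcl2 gave a log2FC of 0.22 between KO and WT (interval from -0.51 to 0.94, edgeR adjusted p-value = 0.701) and Ptgs2 one of -1.14 (interval from -2.83 to 0.55, adjusted p-value = 0.346). WT1 decided both values. Without it Cxcl2 was higher in KO by 0.97 (adjusted p-value = 0.00148) and Ptgs2 by 1.87 (adjusted p-value = 1.2e-05), in a comparison where 47.8% of all genes passed. All 6 KO libraries of Ptgs2 then lay above those of WT2 and WT3, as in 13.6% of genes. Il1b gave 0.43 (adjusted p-value = 0.68), with -2.04 for KO1 alone (adjusted p-value = 0.151) and 1.27 for KO2 alone (adjusted p-value = 0.26). Of the 6 macrophage markers, 3 were higher in untreated KO, namely Adgre1 (2.39, adjusted p-value = 0.00164), Itgam (0.30) and Csf1r (0.22), and their part in these results was not tested.

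After IFNG, where 23.9% of 13637 genes passed (10.9% higher in KO), Tnf was higher in KO by a log2FC of 1.38 (standard error 0.156, edgeR adjusted p-value = 1.55e-05). Its lowest KO library, 208 CPM, lay above its highest WT library, 149 CPM, a separation shared by 3.37% of genes. The call held for KO1 alone (1.17, adjusted p-value = 0.00075) and KO2 alone (1.56, adjusted p-value = 0.000306). Il1rn was higher by 1.02 (standard error 0.208, adjusted p-value = 0.00192), with 1.46 in KO1 (adjusted p-value = 3.33e-05) and 0.40 in KO2, which did not pass alone (adjusted p-value = 0.148). Il1a gave -0.37 (adjusted p-value = 0.672), with the KO clones on opposite sides, at -2.43 for KO1 alone and 0.39 for KO2 alone (adjusted p-value = 0.708). In the comparison of KO1 alone, Il1a passed the filter only through WT libraries in which it was high. The value for KO1 is therefore given with no test. The mean of Il1a was 0.125 CPM in KO1 and also low in WT1, at 0.242 CPM. Il1b passed the filter only in the comparison of KO2 alone with WT, through the KO2 libraries in which it was high. Its values are therefore given with no test. They were 1.08, 0.957 and 1.65 CPM in KO2 and at most 0.447 CPM in WT (log2FC 2.67). For Cxcl2 and Ptgs2 the fitted differences, given with no test, were 1.48 (standard error 0.32) and 0.22 (standard error 0.678). Leaving out WT1 gave 2.17 and 2.50. The levels after IFNG of all the chosen genes, with Tnf, Il1rn and Il1a among them, were in view at the selection. The p-values of Tnf, Il1rn and Il1a after IFNG are therefore not independent of the selection. Without WT1 all KO libraries of Cxcl2, Ptgs2 and Tnf lay above the WT libraries, as in 13.4% of genes, and 44.8% of genes passed the test.

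Clones, rather than libraries, are the units that carry the genotype. An exact permutation test over the 5 clone means, two-sided, has 10 splits and cannot go below p = 0.1. Il1rn untreated and Tnf and Il1rn after IFNG reached this smallest value, with both KO clones above all 3 WT clones, while untreated Tnf gave an exact p = 0.3, Cxcl2 0.5 and Ptgs2 1.

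**Figure D4:**
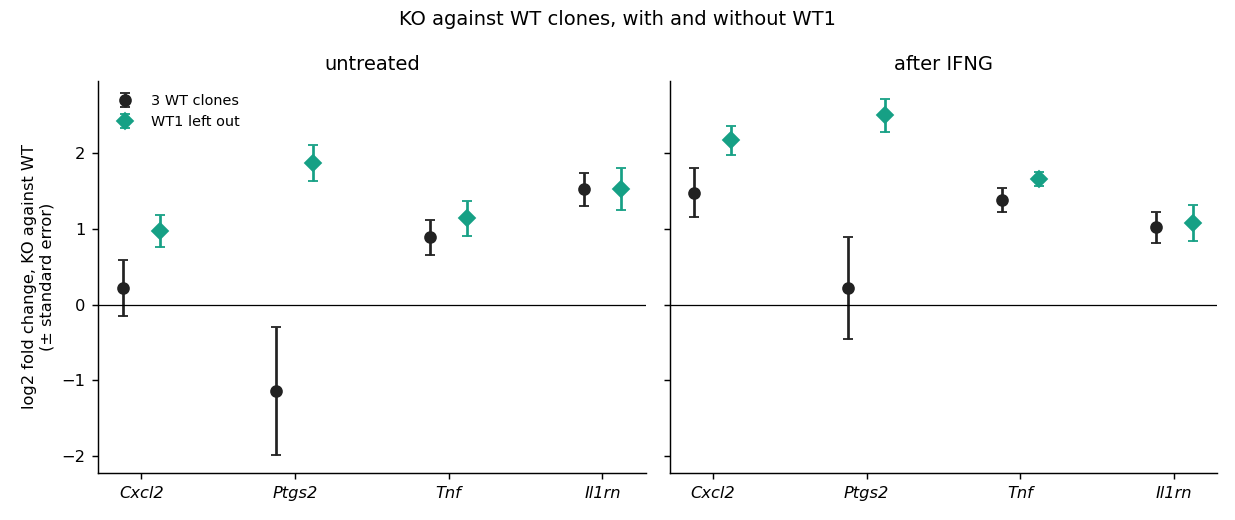
Points give the log2FC of KO against WT (vertical axis) with its standard error for 4 genes in untreated cells (left) and after IFNG (right), circles with all 3 WT clones and diamonds with WT1 left out. Leaving out WT1 moves untreated Ptgs2 from -1.14 to 1.87 and Cxcl2 from 0.22 to 0.97, and Il1rn hardly at all (1.52 and 1.53).

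The clones of a genotype differed from each other in most of these genes. Between untreated KO1 and KO2, where 23.2% of 13826 genes passed, 4 of the 5 genes that passed the filter on low counts were called. Il1b, among these, passed the filter only through the KO2 libraries, in which it was high. Its values are therefore given with no test. KO1 was lower in Cxcl2 and in Tnf (log2FC -1.11, standard error 0.112, edgeR adjusted p-value = 3.27e-06). It was higher in the antagonist Il1rn (1.26, standard error 0.127, adjusted p-value = 3.32e-06). Untreated Il1b was at most 0.197 CPM in KO1 and at 1.21 to 1.91 CPM in KO2 (log2FC -3.31). Among untreated WT clones, where 59.5% of 13971 genes passed, Cxcl2, Ptgs2, Tnf and Il1b were called and Il1rn was not (edgeR adjusted p-value = 0.307). All 4 were highest in WT1. For Tnf the log2FC was -0.75 in WT2 and -0.56 in WT3 relative to WT1 (adjusted p-value = 6.7e-06). For Il1b it was -2.41 and -2.65, given with no test, since Il1b passed the filter only through the WT1 libraries.

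Genes within 5 Mb of each gene were set beside these values. Around Tnf, 186 genes had a median log2FC of -0.40 in WT2 and -0.36 in WT3 relative to WT1. Over the whole of chromosome 17, 698 genes, with these included, had medians of -0.27 and -0.25. In untreated KO1 and KO2 against WT the genes around Tnf had a median of 0.14, against 0.22 and 1.34 for Tnf itself. The level of chromosome 17 thus moved with Tnf among the WT clones, and its part in the result was not tested. Around Cxcl2, Ptgs2, Il1b and Il1rn the medians of the same comparisons stayed between -0.04 and 0.07.

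The IFNG response itself was compared between clones of the same genotype for the 5 genes other than Cxcl2 that passed the filter. Between KO1 and KO2, 0.153% of 14370 genes passed, and among WT clones 2.3% of 14328. None of the 5 genes passed in either comparison, with edgeR or with DESeq2 (0 calls each, where DESeq2 called 0.299% and 2.85% of all genes). At an unadjusted p-value under 0.05 there was 1 gene in each, Tnf between the KO clones and Ptgs2 among the WT clones. These same genes passed with the order of the library numbers as a term, where 0.195% and 2.88% of all genes did. For Il1rn the responses of KO1 and KO2 differed by -0.18 on the log2 scale (interval from -0.64 to 0.28).

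Libraries of the same clone and treatment also differed among themselves in an ordered way. In all 5 untreated clones the library with most Cxcl2 also had most Tnf, and the 3 libraries followed the same order in both genes. This order was that of the numbers in the column names, with the level falling from the first to the last library of each clone. What these numbers stand for is not given in the sources used here, and their part in the shared order was not tested. Of 12992 genes, 7 (0.0539%) followed it in all 5 clones, which were Zbtb17, Zfp36, Klf2, Fos, Trib1, Dusp1 and Tnf, and 5 genes took the opposite order in all 5. Zfp36 and Dusp1 were 2 of the 18 regulators of inflammatory mRNA and NF-κB feedback. Ptgs2 followed the order of Cxcl2 in 1 of 5 untreated clones, Il1rn in 0, and the number of counted fragments in 1. After IFNG the level of Cxcl2 fell with the library number in 2 of 5 clones, Tnf shared the order of Cxcl2 in 2 of 5, and 0 genes did in all 5.

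**Figure D5:**
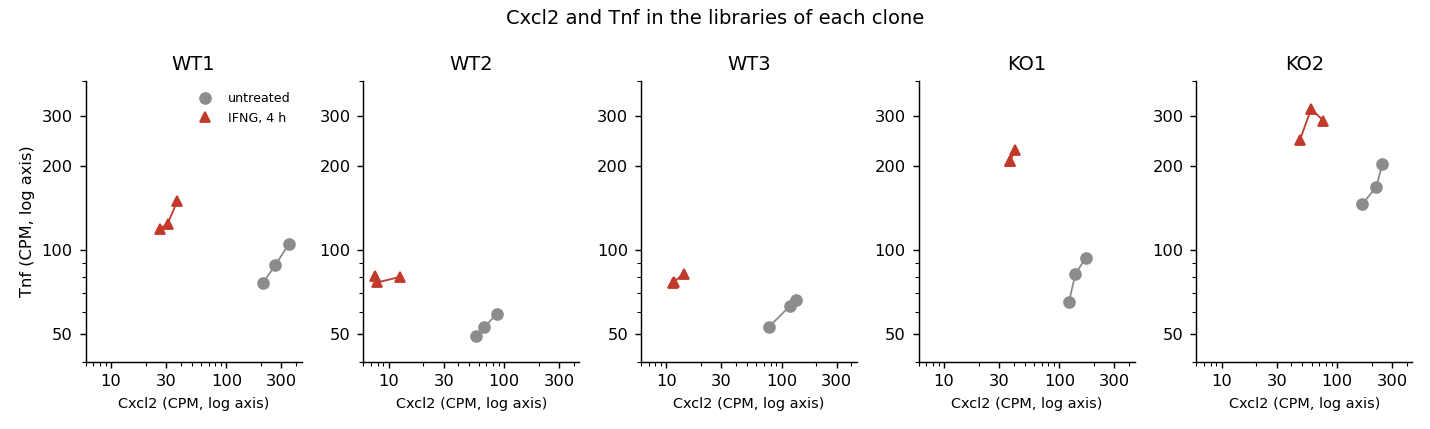
Each panel plots Tnf (vertical axis) against Cxcl2 (horizontal axis), both in CPM on log axes, for the 3 untreated (grey circles) and 3 IFNG-treated (red triangles) libraries of a clone, joined within a treatment. The grey lines rise in all 5 panels, and treated libraries lie to the upper left of the untreated ones, with KO1 moving furthest up (65.3 to 93.9 CPM untreated and 208 to 227 CPM after IFNG).

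Across the 10 clone and treatment means, the genes outside the group whose log2 level was most like that of Cxcl2 were Ifngr1, a chain of the IFNG receptor, B4galt6, Gm45606, Vps37b and AI606473 (Pearson correlation 0.97 to 0.98). Over the 30 libraries the nearest included Nlrp3, the inflammasome sensor, at 0.96. The 10 means are 5 clones in 2 treatments, and genes that are lower after IFNG share that step. For Ptgs2 the nearest were Spata13 (0.99), Pfkp, a phosphofructokinase of glycolysis (0.97), Pvr, Tes and P4ha1 (0.96 each). Within the group Ptgs2 and Tnf gave 0.64, Cxcl2 and Ptgs2 0.10, and Cxcl2 and Tnf 0.05.

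The wider pathway was followed in 78 further genes in 6 lists. Under IFNG, 24 of 55 tested passed in WT (16 higher, 8 lower) beside 28.6% of 13423 genes, and 25 of 56 in KO (20 higher, 5 lower) beside 30.7% of 13851 genes. Among the 18 regulators of inflammatory mRNA and NF-κB feedback, 8 passed in WT and 9 in KO, with median log2FC of 0.03 and 0.20 beside -0.00 over all genes. Socs3, a brake on cytokine receptors, rose by 4.85 in WT (edgeR adjusted p-value = 9.84e-10) and 5.54 in KO (adjusted p-value = 1.21e-10). Bcl3, an NF-κB cofactor, rose by 2.56 and 2.86, and Zfp36, which destabilizes AU-rich mRNAs, by 1.92 (adjusted p-value = 4.52e-09) and 2.13 (adjusted p-value = 4.01e-05). Zfp36 means went from 158 to 561 CPM in WT1 and from 82.5 to 580 CPM in KO1. Of these 18 regulators 7 hold TTATTTATT in their own 3′ UTR, beside 8.13% of all genes.

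Of the 10 genes for processing and release of Il1 and Tnf, 7 passed in each genotype, 6 of them higher, beside 28.6% of all genes in WT and 30.7% in KO. Casp4, the sensor of cytosolic lipopolysaccharide, rose by 2.87 in WT (edgeR adjusted p-value = 6.34e-18) and by 2.61 in KO. Furin, a proprotein convertase, rose by 1.03 and 1.00, and Nlrp3 fell by 1.09 in WT (adjusted p-value = 2.08e-07). In the list of receptors, 1 of 8 passed in WT and 2 of 8 in KO, shares below those over all genes. Tnfrsf1a, the main Tnf receptor, rose by 1.82 in WT and 1.88 in KO and was abundant, with means of 94.5 to 492 CPM. The prostaglandin E receptor Ptger4 rose by 0.80 in KO (adjusted p-value = 0.000397) and gave 0.65 in WT (adjusted p-value = 0.11). Its means went from 31 to 42.5 CPM in WT1, 12.9 to 23.8 CPM in WT2 and 9.93 to 18.6 CPM in WT3. Every treated Ptger4 library lay above every untreated one of its clone in all 5 clones, as in 10.8% of the 12993 genes. The fits had no term for clone, so that the spread between WT clones entered the error of the WT fit. Passing in KO and not in WT is therefore no difference of response. A difference of response between genotypes passed in 0 of 8 receptors.

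Of 8 genes of prostanoid synthesis and handling tested, 3 passed in each genotype (37.5%), near the 28.6% of all genes in WT and 30.7% in KO. All had changes under 0.3 on the log2 scale, such as Ptgs1, the constitutive cyclooxygenase, at -0.29 in WT (edgeR adjusted p-value = 0.00952). Pla2g4a, which frees arachidonic acid, was at 0.17 and 0.21. Ptges, the inducible prostaglandin E synthase, gave 0.68 in WT (adjusted p-value = 0.189) and 0.67 in KO (adjusted p-value = 0.108) and did not pass. These fits had no term for clone. Within each of the 5 clones every treated Ptges library lay above every untreated one, as in 10.8% of the 12993 genes. Among neighbouring chemokines and Il1 family genes, 1 of 4 tested passed in WT and 1 of 5 in KO, shares below those over all genes. This was Il18, which rose by 1.07 and 1.06. Of 7 other macrophage mediators tested, 4 passed in WT (57.1%, beside 28.6% of all genes) and 3 in KO (42.9%, beside 30.7%). The monocyte chemokines Ccl7 (3.10 and 3.21) and Ccl2 (2.09 and 1.92) rose, as did Ccl4 (0.52 and 0.75), in the direction opposite to Cxcl2. Ccl3, a further chemokine of the list, fell by 0.46 in WT (edgeR adjusted p-value = 0.0212), the direction of Cxcl2, and gave -0.06 in KO (adjusted p-value = 0.429).

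The response differed between genotypes in 3 of 59 pathway genes, beside 1.02% of 14682 genes. Nfkbiz, an NF-κB cofactor, had a larger log2FC in KO by 0.63 (standard error 0.14, edgeR adjusted p-value = 0.0153), Nlrp3 by 0.45 (standard error 0.0719, adjusted p-value = 0.000474) and Ccl3 by 0.37 (standard error 0.0732, adjusted p-value = 0.00585). Without KO1 the count was 0 and without KO2 it was 9.

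Between KO and WT, 19 of 56 pathway genes passed untreated (10 higher, 9 lower), beside 26.6% of all genes, and 22 of 55 after IFNG (16 higher, 6 lower), beside 23.9%. Among the regulators these were 3 of 18 and 8 of 18. After IFNG the feedback genes Tnfaip3 (1.25, edgeR adjusted p-value = 0.00704), Dusp2 (1.07, adjusted p-value = 0.00669) and Nfkbia (0.69, adjusted p-value = 6.3e-05) were higher in KO. Ptger4 was higher in KO by 1.11 untreated and 1.27 after IFNG, Tnfrsf1a was lower by 0.38 and 0.32, and Il18 was lower by 0.61 and 0.62. Ccl2 was higher by 0.66 and 0.48 (adjusted p-value = 0.000153 and 0.000413). On counts summed per clone, 0 pathway genes and 0 of the 8 passed in either comparison, and of all genes 0.00618% untreated and 0.00617% after IFNG.

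Between untreated KO1 and KO2, 33 of 56 pathway genes passed, 27 of them lower in KO1, beside 23.2% of all genes. The regulators took 13 of these, 12 lower, with a median log2FC of -0.37 beside 0.00 over all genes, among them Egr1 (-1.77, edgeR adjusted p-value = 1.83e-07), Zfp36 (-1.39, adjusted p-value = 1.4e-07) and Socs3 (-1.31, adjusted p-value = 7.89e-06). Cxcl2, Tnf and Il1b were lower in KO1 in the same comparison. Among untreated WT clones 45 of 58 pathway genes differed, 17 of 18 regulators included, beside 59.5% of all genes. Egr1, Tnfaip3 and Ier3 were lower in WT2 and WT3 than in WT1 by log2FC between -3.12 and -1.81, as was the decoy receptor Il1r2 (-4.22 and -3.91, adjusted p-value = 8.9e-12).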

How the data were processed

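PolyA RNA of the 30 J774A.1 libraries was sequenced in pairs. After trimming in BBDuk, the authors mapped reads to mm10 by HISAT2 2.1.0, kept uniquely mapped fragments, merged technical runs with SAMtools 1.10 and counted fragments per gene by strand with featureCounts 1.6.2. Overlapping genes were each credited. The deposited values used here are these raw counts. The file header names Gencode vM18 as annotation. Another 13 deposited tables, which hold subsets of the same counts, were not used, and DESeq2 1.26.0 was the authors' own test. The labels mention 200 or 500 ng of RNA and different adapters without assigning them to libraries.

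Columns were assigned to clone and treatment by their names. wtc1 and wtc3 were taken as WT2 and WT3 from the authors' tables per clone. Chi-square per degree of freedom ran from 1.88 to 17.9 between libraries of a group, so that no library appeared to be deposited in duplicate. Symbols were matched by Ensembl identifier, and 67 of 54146 had none.

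Counts were tested with edgeR 4.0.16 (R 4.3.3, TMM, filterByExpr, quasi-likelihood, Benjamini-Hochberg over all genes tested, threshold 0.05). Fits compared 9 WT with 6 KO libraries, 3 with 3 for single clones, or used clone, treatment and their interaction. The IFNG response of a genotype was fitted on treatment alone, with no term for clone. CPM used TMM factors from 14870 genes, and correlations used log2(CPM + 0.5). Intervals are 2 standard errors on each side and cover the spread between libraries. AU-rich motifs were counted in the merged 3′ UTRs of all protein-coding transcripts of each gene (mm10 annotation, in which the 8 genes span the same positions as in the count table). The procedure was tested on simulated counts. DESeq2 1.42.0, other normalizations and filters, sums per clone and omissions of clones or libraries served as alternatives. Clone means with the exact permutation test and the order of the library numbers in the column names as a term were chosen after seeing the data.

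The 8 genes and the pathway lists were chosen with earlier results of these data known. Named genes are the 8, the up to 3 pathway genes per list and comparison with the largest absolute log2FC past the threshold and a mean reaching 1 CPM in a group, the 5 genes most like Cxcl2 and Ptgs2, and Irf1, Gbp2 and Dicer1. Another 2 genes of the fixed lists and 1 promoter motif are not reported here. Genes that share the library order of Cxcl2 were named after their values were seen, as were receptors at the floor, Ptges and Ccl3 in the response.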

Additional observations from a re-analysis of the deposited data

Results flagged for a closer look

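In untreated WT cells the Il1b level of 1 WT1 library, 2.12 CPM, lay far from the remaining 8, of which the next was at 0.904 CPM (gap over range 0.586). It was the only such library in 24 combinations of gene, genotype and treatment. The next library was also of WT1, and the means of WT1, WT2 and WT3 were 1.3, 0.261 and 0.196 CPM. A rate by chance of about 1 in 20 holds for libraries of the same level and does not apply here.

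The IFNG response differed between KO and WT by an interaction test in Nfkbiz (0.63 on the log2 scale, edgeR adjusted p-value = 0.0153), Nlrp3 (0.45, 0.000474) and Ccl3 (0.37, 0.00585). It also differed in the direct IFNG target Gbp2 (0.55, adjusted p-value = 0.0166), which responded more in KO, and in Dicer1 (-0.36, 5.66e-05). Nlrp3 shared the lower level after IFNG and the smaller drop in KO with Cxcl2, and was among the genes nearest to it over the libraries.

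Between KO1 and KO2 the response differed in Socs3 (1.34, edgeR adjusted p-value = 0.00421), Zfp36 (1.10, 0.00421) and the immediate early gene Ier3 (0.96, 0.0472), each larger in KO1, which started lower in all 3 genes (log2FC of Ier3 -1.13, adjusted p-value = 3.56e-07).

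Among WT clones the response differed in Tnfaip3 (1.04 in WT2 and 0.90 in WT3 relative to WT1, edgeR adjusted p-value = 9.49e-05), Ier3 (0.97 and 0.50, 0.000569), Socs3 (0.89 and 0.66, 0.00668) and Ptger4 (0.47 and 0.50, 0.00646). WT1 had the smaller response in these 4 genes.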

How the results depend on the processing

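No paired analysis was possible because the count columns carry no replicate number of the labels, and the fits with the replicate as a block were not run. The column names do carry consecutive library numbers, and their order within a clone and treatment was added as a term after seeing the data. The responses then gave 1 of the 8 genes and 7 pathway genes between KO clones (from 0 and 4) and 1 and 8 among WT clones (from 0 and 7), and the other counts stayed within 1.5 times. Depth limits Cxcl1, Cxcl3, Il1a and Il1b, and clones limit every comparison of genotypes. DESeq2 and RLE factors moved no count among the 8 genes or the pathway genes by over 1.5 times. Over all genes, the difference between the KO clones' responses gave 22 calls, 43 with DESeq2 and 138 without the filter, that among WT clones 330 and, without the filter, 578, and the interaction 150 and 384. RLE factors shifted log2FC by a median of at most 0.0101 over the genes of the lists.

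On counts summed per clone, 0 of the 8 genes and 0 pathway genes passed between KO and WT, untreated or after IFNG (from 2 and 19, and 2 and 22). Untreated, the calls among the 8 numbered 1 without KO2, WT2 or WT3 and 4 without WT1, and pathway calls 10 without KO1 and 36 without WT1. After IFNG the pathway calls were 14 without KO1 and 37 without WT1. The IFNG response of WT gave 42 pathway calls with clone as a term and 37 without WT1 (from 24). The interaction gave 14 pathway calls without the filter, 0 without KO1 and 9 without KO2 (from 3), and 1 to 3 with libraries left out. The KO clones' responses gave 1 of the 8 genes and 10 pathway genes without the filter (from 0 and 4), and 0 to 5 pathway genes with libraries left out. The WT clones' responses gave 1 and 11 (from 0 and 7), and 4 to 8. Over libraries, 2 of the 5 genes most like Cxcl2 were shared. The cause of these changes was not tested. With single libraries left out, the other counts ran from 18 to 20 and 23 to 25 pathway genes for the IFNG response of WT and KO, 17 to 21 and 17 to 26 for KO against WT untreated and after IFNG, with 2 of the 8 genes throughout, 26 to 31 for KO1 against KO2 and 43 to 45 among WT clones, with 4 of the 8 genes in both, and 0 of the 8 for both differences of response. All other counts stayed within 1.5 times.

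Direction reversed in 19 single values. Between KO and WT untreated these were Ptgs2 (1.87 without WT1, 0.34 by clone means), Cxcl2 (-0.10 without KO2, -0.12 without WT2) and Il1b (-2.04 without KO2, and -0.01 to 0.65 with a library left out). After IFNG they were Ptgs2 (-0.23 without WT2, -0.30 without WT3) and Il1a (0.39 without KO1). The rest had libraries or a clone left out and concerned Il1b in the KO response (-0.46 to 0.05), Il1a in the interaction (-0.21 to 0.31, and -0.45 without KO2), Ptgs2 between KO1 and KO2 (-0.16 to 0.17), Cxcl2 (-0.27 to 0.10) and Il1rn (-0.30 to 0.01) in the KO clones' responses, and Il1b (-4.10 to 0.49), Il1a (-1.11 to 0.27) and Il1rn (-0.21 to 0.05) in those of the WT clones.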
